A study of Mus musculus with 3 samples.

Results

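The genes described here are 10 ligands, receptors, regulators and targets of TGF-beta and BMP signalling, chosen by name: the ligands Tgfb2, Bmp2 and Inhbb, the secreted inhibitors Lefty1 and Grem1, the receptors Acvr1, Acvr1c and Bmpr2, the coreceptor Eng and the target gene Id1. Of these 10 genes, 9 are among the 3264 genes of the mitral valve matrix that have a value in every cell. Grem1 was not analysed here.

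Ligands of this family bind type I and type II receptor kinases together, and the type I kinase then phosphorylates SMAD proteins, which enter the nucleus and change transcription. TGF-beta and the activins act mainly through different SMADs from the BMPs, and coreceptors and secreted inhibitors set how much ligand reaches the kinases. In the developing heart these ligands drive endothelial cells of the cushions to become the mesenchyme from which valves form, and fibrillin microfibrils hold latent TGF-beta in the matrix.

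The 3 samples are mitral valves of male mice of strain B6.129-Fbn1tm2Rmz/J, labelled mgR/mgR, at an age of 12 weeks, and no label names a treatment. How many mice gave each sample is not stated by the labels. The mgR allele of Fbn1 carries a neo cassette in an intron and lowers fibrillin-1 without removing it, in every cell of the body, and background mutations that such a line can gather were not assessed. Droplet 3′ RNA sequencing counted transcripts as unique molecular identifiers (UMIs), and all libraries stand in 1 matrix of 16383 cells. A barcode in it cannot be traced to a mouse, a genotype or a library, and whether it stands for a whole cell or a nucleus is not known, so the matrix counts as 1 sample, with no replicates, no spread between mice and no comparison of genotypes. Whether all cells of the matrix are mgR/mgR and untreated is not known either. Total depth ran from 503 to 23127 UMIs a cell (median 5349), and the median cell had 841 UMIs on the listed genes.

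In the order of the matrix the barcodes form 2 alphabetical runs, of 14222 and 2161 cells, with median depths of 5154 and 6918 UMIs. The runs share 11 barcodes. What the runs stand for is not known, and values within each are given beside the main pooled ones. A level is given in UMIs per 10000, a gene's UMIs summed over a group's cells and divided by the sum of those cells' total UMIs, with a 95% exact Poisson interval in brackets. All intervals cover counting error only. Levels were compared between groups of cells, gene by gene, and never between genes.

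Cells were sorted by their own UMIs of marker genes. Fibroblast-like cells had a UMI of at least 2 of the 3 genes Prrx1, Col3a1 and Dpt and none of Egfl7. They numbered 3149, or 19.2% of all cells, with a median of 6063 UMIs, and 791 of them had a UMI of Scn7a. Endothelial-like cells had a UMI of Egfl7 and fewer than 2 of the fibroblast genes. They numbered 8966, or 54.7% of all cells, with a median of 5365.5 UMIs. Among these, 2715 had UMIs of Prox1 or Kif26b and of no other pair, 726 of Tmem163 or Kcnh1 alone and 1342 of Selp or Fmo2 alone. The other 4183 endothelial-like cells comprised 1578 without a UMI of the 6 split genes and 2605 with UMIs of more than 1 pair. Ptprc cells had a UMI of that leukocyte gene, none of Egfl7 and fewer than 2 fibroblast genes, and numbered 470 with a median of 4851 UMIs.

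The marker lists bore on these labels as follows. All 3 fibroblast markers in the matrix, of 8 listed, were above their level over all cells in the fibroblast-like cells, but they are the genes of the rule. All 8 endothelial markers present, of 13 listed, were above it in the endothelial-like cells, where their summed level was 12.8 against 0.378 in fibroblast-like cells. That list and its sum include Egfl7, the gene of the rule, which the rule holds at 0 UMIs in fibroblast-like cells. All 9 leukocyte markers present, of 11 listed, were above it in the Ptprc cells, where their summed level was 44.6 against 0.486 in fibroblast-like and 0.578 in endothelial-like cells, and here Ptprc itself, by which the cells were chosen, is among the 9 and in the sums. The most abundant markers were Col3a1, Egfl7 and Ptprc in their own groups. Cardiomyocyte markers, of which Ttn was the most abundant, summed to 1.11 in endothelial-like and 0.103 in fibroblast-like cells, and their part in the results was not tested. Mural markers, led by Rgs5, summed to 0.101 in fibroblast-like and 0.00279 in endothelial-like cells and the melanocyte gene Mlph stood at 0.263 and 0.0426, and their part was not tested either.

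A member was called past 2-fold where its level differed at least 2-fold between groups with at least 50 UMIs in both together. Between endothelial-like and fibroblast-like cells, 5 of the 9 members were called higher in the endothelial-like cells, against 15.3% of the 2601 genes tested, and 0 were called lower, against 18.1%. The 5 were Bmpr2, Eng, Lefty1, Inhbb and Id1. The median log2 ratio was 1.15 over the members and -0.05 over all tested genes. In Ptprc cells against the fibroblast-like and endothelial-like cells together, 0 of 9 members were called higher, against 15.7% of 2648 genes, and all 9 were called lower, against 22.1%. A scarce gene passes the filter through its UMIs in the larger group, so the 9 include Lefty1, Acvr1c, Bmp2 and Inhbb with 1, 2, 5 and 7 UMIs in Ptprc cells. With clusters at either resolution in place of the marker rules, 5 of 9 were called lower, against 17.5% of 2716 genes. By the marker rules, the median log2 ratio was -2.80 over the members and -0.08 over all genes.

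Within the main types fewer members were called when cells were grouped by the marker rules. Between fibroblast-like cells with and without Scn7a, 0 of the 7 members with enough UMIs were called in either direction, against 8.63% of 2190 genes. In the Prox1/Kif26b group against the other endothelial-like cells, 1 of 9 members was called, against 9.17% of 2398 genes. The Tmem163/Kcnh1 group had 2 of 9 called, against 11.9%, and the Selp/Fmo2 group 1 of 9, against 7.21%. The Selp/Fmo2 call was Acvr1c, lower with 4 UMIs in that group. It passed the filter only through the UMIs of the other endothelial-like cells. These counts depended on how cells were grouped. With clusters at resolutions 0.5 and 1.0 in place of the marker rules, 4 and 4 of 9 members were called for Prox1/Kif26b, 7 and 6 for Tmem163/Kcnh1 and 4 and 2 for Selp/Fmo2. The shares of all genes called were then 14.3% and 16.2%, 19% and 16.4%, and 15.1% and 14.2%. Groups of clusters are other sets of cells, 3805 and 4819 for Tmem163/Kcnh1 against 726 by the rules. The median log2 ratio of the members was -0.01 for the Scn7a split, -0.38 for Prox1/Kif26b, 0.20 for Tmem163/Kcnh1 and -0.02 for Selp/Fmo2, where all genes had -0.03, -0.03, -0.05 and -0.02.

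**Figure D1:**
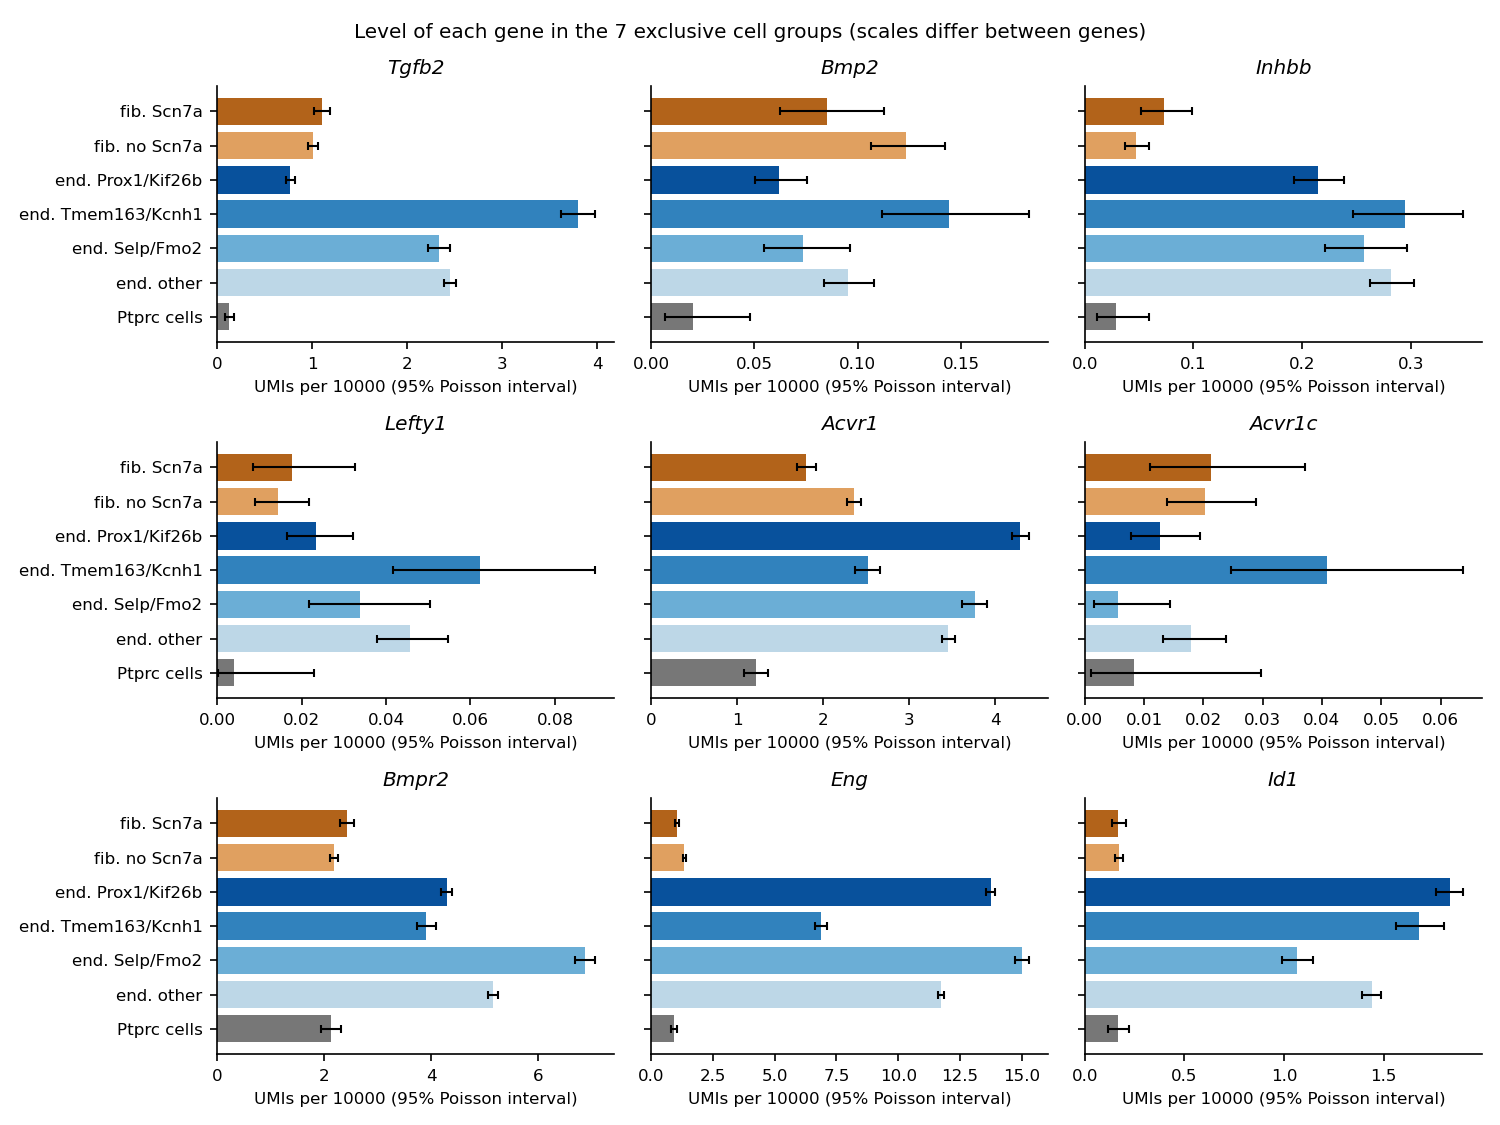
Level of each of the 9 members, in UMIs per 10000, in 7 cell groups that do not overlap, with 95% exact Poisson intervals as bars; each panel has its own scale. Eng and Id1 were higher in every endothelial-like group than in both fibroblast-like groups, and Tgfb2 was highest in the Tmem163/Kcnh1 group at 3.80. Pooled over the runs, 8 members, all but Acvr1c, were lower in Ptprc cells than in fibroblast-like and endothelial-like cells together beyond counting error.

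Tgfb2, on the minus strand at chr1:186622792-186705989 (GENCODE M21, GRCm38), encodes a TGF-beta ligand that endocardial and mesenchymal cells of the forming valve secrete. Its level was 1.03 (0.987 to 1.07) in fibroblast-like cells, 2.06 (2.02 to 2.10) in endothelial-like cells and 0.128 (0.0867 to 0.181) in Ptprc cells. Scn7a divided the fibroblast-like cells little, with 1.10 in cells that had it and 1.005 in those without. The endothelial-like groups spread more widely, from 0.771 in Prox1/Kif26b cells through 2.33 in Selp/Fmo2 and 2.45 in the other cells to 3.80 in Tmem163/Kcnh1 cells. The intervals of the Selp/Fmo2 and other groups overlapped, those of the rest did not.

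The ratio of endothelial-like to fibroblast-like Tgfb2 was 1.996 (1.91 to 2.09), just under the call, and it was 2.15 in run 1 and 1.49 in run 2. Within endothelial-like cells its level was 2.30 in run 1 and 1.06 in run 2. Prox1/Kif26b cells held 3.37-fold less Tgfb2 (3.17 to 3.57) than the other endothelial-like cells, a ratio of 0.326 in run 1 and 0.207 in run 2. The Tmem163/Kcnh1 group, by contrast, was only just past the call at 2.007 (1.91 to 2.11), with 1.78 (1.69 to 1.88) in run 1, under the call, and 4.04 (3.28 to 4.92) in run 2. With clusters at the coarser resolution in place of these groups, both directions turned, to log2 ratios of 0.88 for Prox1/Kif26b and -1.46 for Tmem163/Kcnh1, and at the finer resolution neither turned. The cause was not tested.

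That pair joins genes that went different ways. In a split made after the clusters had been seen, the 406 cells of the pair with Kcnh1 and no Tmem163 had a Tgfb2 level of 6.71 (6.38 to 7.05), and the 283 with Tmem163 and no Kcnh1 had 0.508 (0.414 to 0.616). Tgfb2 was thus 13.2-fold higher (10.8 to 16.3) with Kcnh1 than with Tmem163. Of the 7 members with enough UMIs in this split, 2 were called higher in Kcnh1 cells, against 6.25% of 1504 genes, and 2 lower, against 7.65%. The higher ones were Tgfb2 and Acvr1, the lower ones Bmp2 and Inhbb. Median depths were 5061 and 6354 UMIs, summed ribosomal protein gene levels 2.78 and 6.29, and 6.90% and 2.47% of the cells came from run 2. Their part in the difference was not tested. In run 1 the Tgfb2 ratio was 13.2. In run 2 the 28 Kcnh1 cells held 109 Tgfb2 UMIs and the 7 Tmem163 cells 0, for a ratio of at least 7.89. That 0 allows a level of up to 0.628, above the 0.523 of the Tmem163 cells in run 1. The log2 ratio of 3.72 stayed past 2-fold in all 13 alternatives, but was only 1.91 with clusters at resolution 0.5.

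Over all endothelial-like cells, Tgfb2 rose in steps with the number of Kcnh1 UMIs in the cell. It stood at 1.40 in 7716 cells with none, 3.80 in 546 cells with 1, 4.29 in 273 cells with 2 and 8.20 in 431 cells with 3 or more. Median depth rose along these steps from 5287 to 6974 UMIs, and the part of depth was not tested. With Tmem163 the order was different, 2.20, 1.30, 0.509 and 0.805, and with Kif26b it was 2.52, 0.868, 1.01 and 0.456. The lowest Tgfb2 level of these steps thus stood in cells with 3 or more UMIs of Kif26b (0.412 to 0.504). Its interval overlapped that of cells with 2 UMIs of Tmem163 (0.393 to 0.648).

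**Figure D2:**
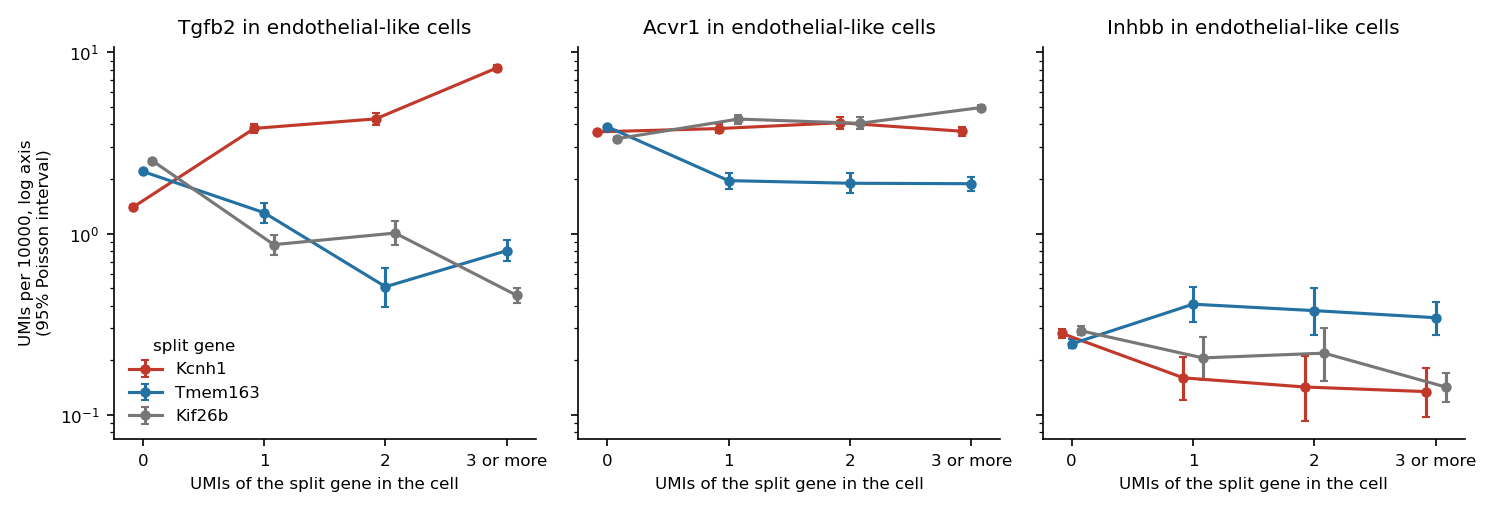
Level of Tgfb2, Acvr1 and Inhbb in endothelial-like cells, in UMIs per 10000 on a log axis, by the number of UMIs of Kcnh1, Tmem163 or Kif26b in the cell, with 95% exact Poisson intervals. Tgfb2 rose from 1.40 to 8.20 with Kcnh1 and was lower with Tmem163 and Kif26b, while Acvr1 was lower and Inhbb higher in cells with Tmem163.

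The share of cells with a Tgfb2 UMI differed less between the main types. Thinned to 2000 UMIs a cell, 14.6% (exact binomial 95% interval 13.9 to 15.4) of endothelial-like and 13.6% (12.4 to 14.9) of fibroblast-like cells had a UMI, against 2.64% (1.33 to 4.68) of Ptprc cells. Without thinning the shares were 22.4%, 28.0% and 5.32%. Thinning left out 563 endothelial-like, 92 fibroblast-like and 54 Ptprc cells of fewer UMIs. Within the Tmem163/Kcnh1 pair, 30.2% of thinned Kcnh1 cells had a UMI, against 4.38% of thinned Tmem163 cells.

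The promoter of Tgfb2 is shown because Tgfb2 was called in several comparisons within the endothelial-like cells. The RefSeq table for GRCm38.p6 holds a promoter window for 6 members, from 250 bases before the RefSeq start to 50 bases after it, 300 bases in all. The RefSeq starts of Bmpr2 and Acvr1 lie inside the GENCODE genes given here, so their windows do too. Both strands were searched for CCGGAA (an ETS core, in 14.9% of 32851 promoters of the table), GGCGCC (a GC-rich SMAD element, 11.9%), TGACGTCA (a cyclic AMP response element, 1.79%) and GTCTAGAC (a palindromic SMAD element, 0.213%). Matches are printed in capitals and describe letters only. The window of Tgfb2, at chr1:186705940-186706239 on the minus strand, had 54.3% GC, where the median promoter had 52.7%, and none of the motifs:
Tgfb2 promoter: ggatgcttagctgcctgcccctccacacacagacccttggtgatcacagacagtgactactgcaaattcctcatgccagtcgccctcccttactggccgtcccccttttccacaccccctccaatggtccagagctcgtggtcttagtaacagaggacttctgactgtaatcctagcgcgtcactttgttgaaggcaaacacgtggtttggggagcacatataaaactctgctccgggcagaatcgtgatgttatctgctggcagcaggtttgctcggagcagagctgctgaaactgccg

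Bmp2, on the plus strand at chr2:133552159-133562885, encodes a BMP ligand needed for cushion formation. Its counts were low, 1043 UMIs in all cells. The level was 0.113 (0.0989 to 0.128) in fibroblast-like, 0.0868 (0.0791 to 0.0951) in endothelial-like and 0.0206 (0.00668 to 0.0480) in Ptprc cells, the last from 5 UMIs. Bmp2 and Acvr1c were the members with a pooled endothelial-like level below the fibroblast-like one, at a ratio of 0.769 (0.656 to 0.903) for Bmp2, and neither was called. Cells without Scn7a had 0.123 and cells with it 0.0850. With all 3 fibroblast genes required, Bmp2 was called lower in the Scn7a cells.

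Among endothelial-like cells Bmp2 had levels of 0.0619 in Prox1/Kif26b, 0.0733 in Selp/Fmo2, 0.0954 in the other and 0.144 in Tmem163/Kcnh1 cells when pooled. In run 2 the order was not kept, with 0.0746, 0.107, 0.0608 and, from 1 UMI, 0.0363. In the split of the Tmem163/Kcnh1 group Bmp2 was lower with Kcnh1. Cells with Kcnh1 and no Tmem163 had 0.0469 (0.0234 to 0.0839) and cells with Tmem163 and no Kcnh1 had 0.209 (0.151 to 0.283), a 4.46-fold lower level with Kcnh1 (2.26 to 9.60). That rests on 11 and 42 UMIs. The call held in 6 of 8 alternatives, and the log2 ratio of -2.16 became -0.19 with clusters at resolution 0.5. Over all endothelial-like cells it was not so: by Kcnh1 UMIs Bmp2 ran 0.0842, 0.0652, 0.114 and 0.131. In runs 1 and 2 the endothelial-like level was 0.0906 and 0.0711 and the fibroblast-like level 0.117 and 0.0746. Thinned shares of cells with a UMI were 1.995% in fibroblast-like and 1.32% in endothelial-like cells, against 0 of 416 Ptprc cells, which at that depth allows up to 0.883%. Without thinning, and so at greater depth, the shares were 5.18%, 3.23% and 1.06%.

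Inhbb, on the minus strand at chr1:119415465-119422248, encodes the activin beta B subunit, which pairs into activins and inhibins. Its level was 0.0540 (0.0445 to 0.0650) in fibroblast-like, 0.260 (0.247 to 0.274) in endothelial-like and 0.0288 (0.0116 to 0.0594) in Ptprc cells. Endothelial-like cells thus held 4.81-fold more (3.97 to 5.88). Run 1 gave 5.55 and run 2 gave 2.24, since the fibroblast-like level was 0.0464 in run 1 and 0.121 in run 2, while the endothelial-like level was 0.257 and 0.272. The summed ribosomal protein gene level was 1.53 in fibroblast-like and 4.40 in endothelial-like cells. The Inhbb call held in all 13 alternatives, with a lowest log2 ratio of 1.17. They include leaving out the clusters of high ribosomal protein gene level, whose part was not tested in any other way.

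Pooled over the runs, the Inhbb level of the endothelial-like groups was 0.215 in Prox1/Kif26b, 0.257 in Selp/Fmo2, 0.282 in the other and 0.295 in Tmem163/Kcnh1 cells. The last 3 had overlapping intervals. The ratio of Prox1/Kif26b to the other endothelial-like cells was 0.624 (0.535 to 0.725) in run 1 and 1.35 (1.06 to 1.71) in run 2, so its direction turned between runs. Within the Tmem163/Kcnh1 group it followed Bmp2, with 0.483 in cells with Tmem163 alone and 0.111 in cells with Kcnh1 alone, 4.36-fold lower with Kcnh1 (2.80 to 7.001). The log2 ratio of -2.12 became -0.51 with clusters at resolution 0.5, which ended the call, while it held in the other 10 of 11 alternatives. By Kcnh1 UMIs it ran 0.281, 0.160, 0.142 and 0.134. Thinned shares were 4.24% in endothelial-like, 1.05% in fibroblast-like and 0.481% in Ptprc cells, and unthinned 10.2%, 2.99% and 0.851%.

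Lefty1, on the plus strand at chr1:180935022-180938400, encodes a secreted inhibitor of Nodal-type ligands. It was scarce, with 326 UMIs in all cells, and reads shared with its close paralogue Lefty2 cannot be told apart here. The level was 0.0153 (0.0105 to 0.0216) in fibroblast-like, 0.0390 (0.0339 to 0.0447) in endothelial-like and 0.00412 (0.000104 to 0.0229) in Ptprc cells, the last from 1 UMI. Endothelial-like cells held 2.55-fold more than fibroblast-like ones (1.75 to 3.83). With the clusters of high ribosomal protein gene level left out, the log2 ratio was -0.00039, so the call rests on those cells. In runs 1 and 2 the endothelial-like level was 0.0417 and 0.0279, and the fibroblast-like level 0.0139 and 0.0280. The ratio in run 2 was 0.996 (0.406 to 2.93), from 29 and 6 UMIs, so a difference was not detectable there at this depth. Among endothelial-like groups it was 0.0234 in Prox1/Kif26b, 0.0339 in Selp/Fmo2, 0.0458 in the other and 0.0624 in Tmem163/Kcnh1 cells when pooled. Run 2 did not keep this order, with 0.0257, 0.0536, 0.0243 and 0, from 10, 7, 12 and 0 UMIs. Thinned shares were 0.643% in endothelial-like, 0.360% in fibroblast-like and 0.240% in Ptprc cells, and unthinned 1.97%, 0.984% and 0.213%.

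Acvr1, on the minus strand at chr2:58388644-58567157, encodes ALK2, a type I receptor for BMPs. All groups held it. Its level was 2.21 (2.15 to 2.28) in fibroblast-like, 3.66 (3.61 to 3.72) in endothelial-like and 1.22 (1.08 to 1.37) in Ptprc cells. The endothelial-like to fibroblast-like ratio of 1.66 (1.60 to 1.71) was under the call, with 1.60 in run 1 and 1.99 in run 2. Fibroblast-like cells with Scn7a had 1.81 and those without 2.36.

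Within the endothelial-like cells the pooled Acvr1 levels ranked in the reverse order of those of Tgfb2. Prox1/Kif26b cells had 4.295 (4.19 to 4.40), Selp/Fmo2 cells 3.76, the other cells 3.46 and Tmem163/Kcnh1 cells 2.52 (2.38 to 2.67). None of these intervals overlapped. In run 2 alone the order was not kept, with 4.297 in Prox1/Kif26b, 4.25 in Tmem163/Kcnh1, 3.96 in the other and 3.96 in Selp/Fmo2 cells. The ratio of Tmem163/Kcnh1 to the other endothelial-like cells was 0.653 (0.613 to 0.695) in run 1 and 1.04 (0.857 to 1.25) in run 2. Inside the Tmem163/Kcnh1 group, however, both genes were higher with Kcnh1, as Acvr1 stood at 3.42 with Kcnh1 alone and 1.43 with Tmem163 alone, a 2.39-fold difference (2.09 to 2.75). Its log2 ratio of 1.26 became 0.74 with clusters at resolution 0.5, under the call, which held in the other 12 of 13 alternatives. The steps of Tmem163 show where it fell: Acvr1 was 3.88 without a Tmem163 UMI, and 1.96, 1.89 and 1.88 with 1, 2 and 3 or more. By Kcnh1 UMIs it hardly moved, at 3.64, 3.79, 4.08 and 3.67.

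Thinned shares of cells with an Acvr1 UMI were 45.7% in endothelial-like, 32.0% in fibroblast-like and 23.6% in Ptprc cells, and unthinned 72.0%, 63.3% and 39.8%. The promoter is shown for its base composition and for a motif match. Its window, at chr2:58566779-58567078 on the minus strand, had 83.7% GC and 1 match of CCGGAA, read on the opposite strand, whose first base lay 85 bases before the RefSeq start:
Acvr1 promoter: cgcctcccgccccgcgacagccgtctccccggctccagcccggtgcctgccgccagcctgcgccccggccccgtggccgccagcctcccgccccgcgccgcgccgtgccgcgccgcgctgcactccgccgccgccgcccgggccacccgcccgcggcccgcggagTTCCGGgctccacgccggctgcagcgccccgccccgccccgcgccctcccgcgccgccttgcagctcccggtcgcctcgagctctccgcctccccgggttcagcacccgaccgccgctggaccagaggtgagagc

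Acvr1c, on the minus strand at chr2:58267453-58357895, encodes ALK7, a type I receptor for Nodal and activins. With 187 UMIs in all cells it was the scarcest member. The level was 0.0206 (0.0149 to 0.0277) in fibroblast-like, 0.0167 (0.0135 to 0.0206) in endothelial-like and 0.00823 (0.000997 to 0.0297) in Ptprc cells, and all 3 intervals overlapped. The ratio of endothelial-like to fibroblast-like cells was 0.814 (0.560 to 1.20), a difference not detectable at this depth when pooled. It was 0.964 (0.639 to 1.48) in run 1 and 0.309 (0.116 to 0.872) in run 2, the latter from 12 and 8 UMIs. In fibroblast-like cells the level was 0.0212 with Scn7a and 0.0203 without.

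Levels of Acvr1c were 0.00564 in Selp/Fmo2, 0.0126 in Prox1/Kif26b, 0.0179 in the other and 0.0409 in Tmem163/Kcnh1 cells. The Tmem163/Kcnh1 group was called 2.83-fold higher (1.61 to 4.74) than the other endothelial-like cells on 19 UMIs. The Selp/Fmo2 group was called 3.26-fold lower (1.23 to 12.3) on 4 UMIs. Run 2 held 12 of the 90 endothelial-like UMIs, and 0 of the Selp/Fmo2 ones. Where at least 200 UMIs were required, Acvr1c was not tested and both calls were lost. Of the 11 alternatives that tested it, the Tmem163/Kcnh1 call held in 9, with a lowest log2 ratio of 0.84, and the Selp/Fmo2 call in 7, with a ratio as near to 0 as -0.26. Thinned, 0.226% of endothelial-like and 0.262% of fibroblast-like cells had a UMI, and 0 of 416 Ptprc cells, which at that depth allows up to 0.883%; unthinned shares were 0.669%, 0.857% and 0.213%.

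Bmpr2, on the plus strand at chr1:59763400-59879014, encodes the type II receptor that BMPs bind. Its level was 2.25 (2.19 to 2.32) in fibroblast-like, 5.01 (4.96 to 5.08) in endothelial-like and 2.12 (1.94 to 2.31) in Ptprc cells. The fibroblast-like and Ptprc intervals overlapped. Endothelial-like cells held 2.23-fold more than fibroblast-like ones (2.16 to 2.30), with 2.15 in run 1 and 2.34 in run 2. Their own level was 4.74 in run 1 and 6.15 in run 2. Fibroblast-like cells had 2.43 with Scn7a and 2.19 without.

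Selp/Fmo2 cells had the highest Bmpr2 level of the endothelial-like groups, 6.87 (6.68 to 7.06), above 5.15 in the other, 4.29 in Prox1/Kif26b and 3.90 in Tmem163/Kcnh1 cells. The ratio to the other endothelial-like cells was 1.45 (1.41 to 1.497), under the call, with 1.54 in run 1 and 1.18 in run 2. Counting Fmo2 gave the same order in steps. Bmpr2 stood at 4.15 in cells without an Fmo2 UMI, 5.05 with 1, 5.59 with 2 and 7.14 with 3 or more. Summed fibroblast markers stood at 1.69 in Selp/Fmo2, 0.303 in Prox1/Kif26b and 0.217 in Tmem163/Kcnh1 cells. Their part in the levels of these groups was not tested. Thinned shares of cells with a Bmpr2 UMI were 55.5% in endothelial-like, 32.1% in fibroblast-like and 29.1% in Ptprc cells, and unthinned 78.7%, 61.5% and 51.5%.

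The promoter of Bmpr2 is shown as that of a called receptor with a motif match. The window at chr1:59764029-59764328 on the plus strand had 59.3% GC and 1 match of GGCGCC, whose first base lay 105 bases before the RefSeq start:
Bmpr2 promoter: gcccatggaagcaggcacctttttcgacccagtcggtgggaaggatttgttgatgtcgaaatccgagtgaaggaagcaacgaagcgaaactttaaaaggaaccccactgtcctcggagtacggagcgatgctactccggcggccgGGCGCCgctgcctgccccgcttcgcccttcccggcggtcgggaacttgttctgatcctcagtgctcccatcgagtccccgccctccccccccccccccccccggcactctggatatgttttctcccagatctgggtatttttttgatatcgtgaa

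Eng, on the plus strand at chr2:32646595-32682669, encodes endoglin, a coreceptor of endothelial cells that helps BMP-type ligands reach their kinases. Its level was 1.26 (1.22 to 1.31) in fibroblast-like, 12.3 (12.2 to 12.4) in endothelial-like and 0.926 (0.809 to 1.06) in Ptprc cells. None of these intervals overlapped. The ratio of 9.76 (9.39 to 10.1) between endothelial-like and fibroblast-like cells was the largest among the members by the marker rules. Its interval overlapped that of Id1. It was 9.74 in run 1 and 9.67 in run 2. The log2 ratio of Eng, 3.29, became 2.69 with clusters at either resolution, still past the call. That of Id1 was 2.72 or more in every alternative, so with clusters Eng did not have the largest ratio. Of the 5071 cells in the fibroblast clusters at resolution 1.0, 60.9% were fibroblast-like by the rule. These clusters included cluster 12, where 57.6% of cells had both Egfl7 and at least 2 fibroblast genes and the Eng level was 7.06. Endothelial-like cells held 84.3% of all Eng UMIs.

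Every endothelial-like group held Eng well above the fibroblast-like level. Selp/Fmo2 cells had 15.01 (14.7 to 15.3), Prox1/Kif26b cells 13.7, the other cells 11.7 and Tmem163/Kcnh1 cells 6.88 (6.65 to 7.13). The Tmem163/Kcnh1 level was 1.87-fold below that of the other endothelial-like cells (1.80 to 1.93), under the call. Both genes of that pair marked lower Eng, since cells with Kcnh1 alone had 8.47 and cells with Tmem163 alone 5.07. By Tmem163 UMIs the steps were 13.1, 7.57, 5.96 and 5.50. By Fmo2 UMIs they rose from 11.1 through 12.4 and 13.7 to 15.2.

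Thinned shares of cells with an Eng UMI were 82.3% (81.5 to 83.1) in endothelial-like, 21.2% (19.8 to 22.7) in fibroblast-like and 12.3% (9.27 to 15.8) in Ptprc cells, and unthinned 94.8%, 49.6% and 24.3%. The part of free RNA, transcripts caught in droplets of other cells, in the UMIs of fibroblast-like and Ptprc cells was not tested. Ratios to endothelial markers are given as a description, and the marker Cd93 had 140 UMIs in Ptprc cells. There were 4.88 Eng UMIs per Cd93 UMI (4.79 to 4.97) in endothelial-like, 12.6 (10.9 to 14.5) in fibroblast-like and 1.61 (1.30 to 1.999) in Ptprc cells. Per Thbd UMI it was 7.096, 13.3 and 3.69, and per Procr UMI 43.9, 20.6 and 16.1, so the order of the fibroblast-like cells turned with the marker. For Tgfb2 the ratio per Cd93 UMI was 0.814, 10.3 and 0.221 and per Procr UMI 7.32, 16.8 and 2.21, higher in fibroblast-like cells by either marker.

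The promoter of Eng is shown as that of the member with the widest ratio between the main types by the marker rules. The window at chr2:32646345-32646644 on the plus strand had 63.3% GC and none of the motifs:
Eng promoter: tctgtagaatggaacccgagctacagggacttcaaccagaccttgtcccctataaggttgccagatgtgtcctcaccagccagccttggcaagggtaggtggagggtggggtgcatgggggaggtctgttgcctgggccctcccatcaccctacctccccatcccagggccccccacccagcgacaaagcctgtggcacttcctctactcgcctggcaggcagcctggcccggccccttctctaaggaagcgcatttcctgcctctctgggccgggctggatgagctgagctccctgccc

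Id1, on the plus strand at chr2:152736251-152737410, encodes an inhibitor of helix-loop-helix transcription factors and is a direct target of BMP signalling. Its level was 0.169 (0.152 to 0.188) in fibroblast-like, 1.53 (1.49 to 1.56) in endothelial-like and 0.165 (0.118 to 0.224) in Ptprc cells. Fibroblast-like and Ptprc cells were thus alike within counting error. Endothelial-like cells held 9.01-fold more than fibroblast-like ones (8.10 to 10.1), with 8.02 in run 1 and 8.40 in run 2. The level itself differed between the runs, as endothelial-like cells had 1.20 in run 1 and 2.90 in run 2, and fibroblast-like cells 0.149 and 0.345. The part of depth and of the ribosomal protein gene level, 4.40 in endothelial-like and 1.53 in fibroblast-like cells, was not tested.

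Fibroblast-like cells had the same Id1 level with Scn7a, 0.168, as without, 0.170. Among the endothelial-like groups, pooled over the runs, Prox1/Kif26b cells had 1.83 (1.77 to 1.90), Tmem163/Kcnh1 cells 1.68 (1.56 to 1.80), the other cells 1.44 and Selp/Fmo2 cells 1.06 (0.990 to 1.14). Run 2 made up 18.9% of the Prox1/Kif26b and 4.82% of the Tmem163/Kcnh1 cells, and the order of these groups differed between runs. In run 1 Prox1/Kif26b cells had 1.23 and Tmem163/Kcnh1 cells 1.60, and in run 2 they had 3.67 and 2.91. Selp/Fmo2 cells were lowest in both runs, at 0.847 and 2.03. The group with the most Bmpr2 and Eng thus had the least Id1, 1.499-fold below the other endothelial-like cells (1.39 to 1.62), which is under the call. By Fmo2 UMIs Id1 fell from 1.75 to 1.56, 1.53 and 0.950. Thinned shares of cells with an Id1 UMI were 19.0% in endothelial-like, 3.07% in fibroblast-like and 2.88% in Ptprc cells, and unthinned 36.2%, 9.24% and 5.74%. Per Cd93 UMI there were 0.604 Id1 UMIs in endothelial-like, 1.69 in fibroblast-like and 0.286 in Ptprc cells, and per Procr UMI 5.43, 2.77 and 2.86, so here too the order turned with the marker.

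**Figure D3:**
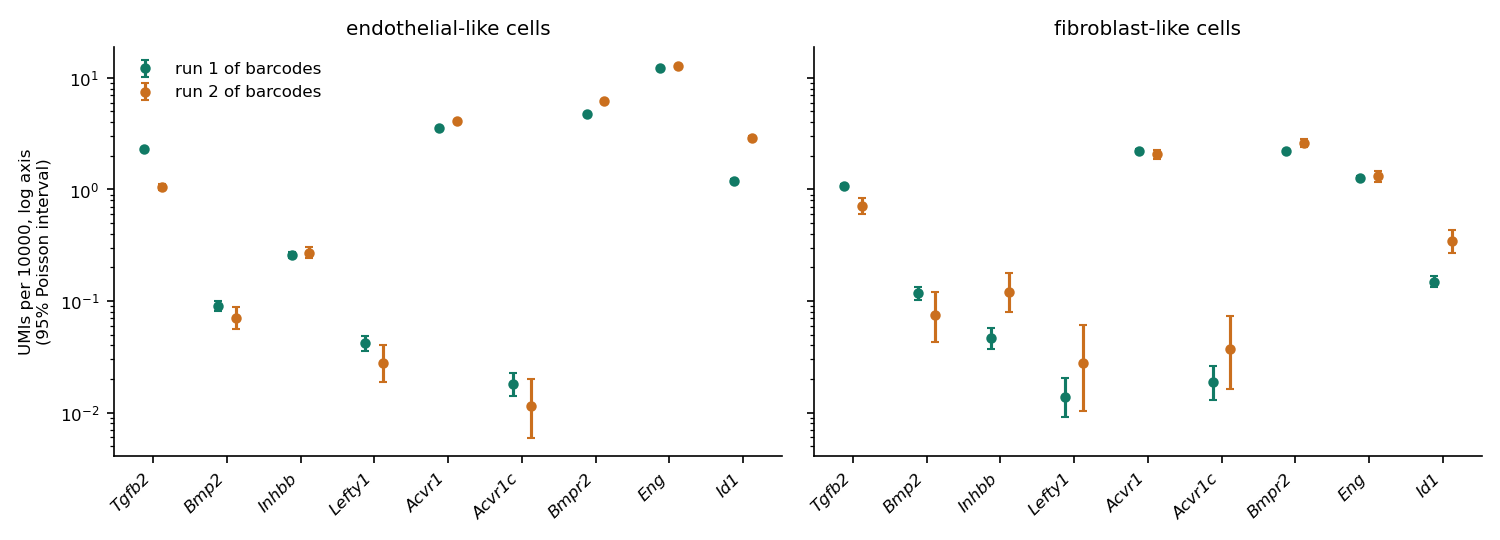
Level of each member in run 1 and run 2 of the barcodes, in UMIs per 10000 on a log axis with 95% exact Poisson intervals, in endothelial-like and fibroblast-like cells. In endothelial-like cells Tgfb2 was lower in run 2 (1.06 against 2.30) and Id1 higher (2.90 against 1.20), while Eng was 12.3 and 12.7.

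Id1 was also read in the same cells as the genes upstream of it, after thinning and within endothelial-like cells. It was found in 19.0% (18.0 to 19.9) of cells with Eng and 19.0% (17.0 to 21.1) of cells without. With Bmpr2 the share was 18.6% and without it 19.4%, and with Acvr1 it was 18.7% and without it 19.2%. Detection of Id1 thus did not follow detection of these receptors beyond counting error. Of 111 cells with a Bmp2 UMI, 29.7% (21.4 to 39.1) had Id1, against 18.8% (18.0 to 19.7) of the rest. Cluster 8, described below, held 29.4% of all Bmp2 UMIs, had Id1 in 31.7% of its thinned cells and a ribosomal protein gene level of 15.5, and its part in that share was not tested. Inhbb was found in 9.01% (4.41 to 15.9) of cells with Bmp2 and 4.17% of those without. Among the receptors, Acvr1 was found in 47.2% of cells with Eng and 38.7% of cells without.

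Clusters show where in the matrix these cells lay. Leiden clustering at resolution 1.0, on variable genes that excluded the members and the pathway genes, gave 17 clusters, numbered by size, and was chosen after a coarser result had been seen. Cluster 5, of 1603 cells, had a Kcnh1 level of 2.62 and a Tgfb2 level of 6.69 (6.53 to 6.86). It held 42.2% of all Tgfb2 UMIs in 9.78% of the cells. Its Tgfb2 level was 6.99 in run 1 and 4.27 in run 2. Of the 12 clusters of at least 200 cells, cluster 1 had the lowest Tgfb2 level, at 0.340, with a Kif26b level of 9.15. Cluster 2, with a Tmem163 level of 1.68, had a Tgfb2 level of 0.968. Cluster 3, with an Fmo2 level of 19.0, had a Bmpr2 level of 7.74, an Eng level of 17.8 and an Id1 level of 0.687.

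Cluster 8 stood apart for the scarce secreted members. In its 861 cells Bmp2 was at 0.414 (0.369 to 0.463), Lefty1 at 0.228 (0.195 to 0.265) and Inhbb at 0.721 (0.661 to 0.785). It held 51.8% of all Lefty1 UMIs, 29.4% of Bmp2 and 27.7% of Inhbb in 5.26% of the cells. Its Tmem163 level was 1.25, and Tgfb2 stood at 0.404 and Acvr1 at 1.26 there. Acvr1c, at 0.0526 (0.0374 to 0.0720), was also high. These cells were deeper than most, with a median of 8410 UMIs, and the summed level of 9 ribosomal protein genes was 15.5 against 3.51 over all cells. In runs 1 and 2 the Bmp2 level there was 0.442 and 0.225, and the Lefty1 level 0.249 and 0.0858. The part of depth and of ribosomal protein gene level in these values was not tested.

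Id1 had its highest level among the plotted clusters in cluster 11, at 5.42 (5.16 to 5.69), and the next highest in cluster 8, at 2.80. Cluster 11 had 379 cells, 95.5% of them endothelial-like, and 92.6% came from run 2. Its ribosomal protein gene level was 15.3. Its 28 cells of run 1 had an Id1 level of 1.74 and its 351 cells of run 2 had 5.68. Bmp2 was at 0.0301 there, far below cluster 8, and Inhbb at 0.345. Run, ribosomal level and Id1 cannot be told apart in this cluster. Cluster 10, with a median of 1454.5 UMIs, had 0 Bmp2 UMIs, which allows a level of up to 0.0437, above that of cluster 11.

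**Figure D4:**
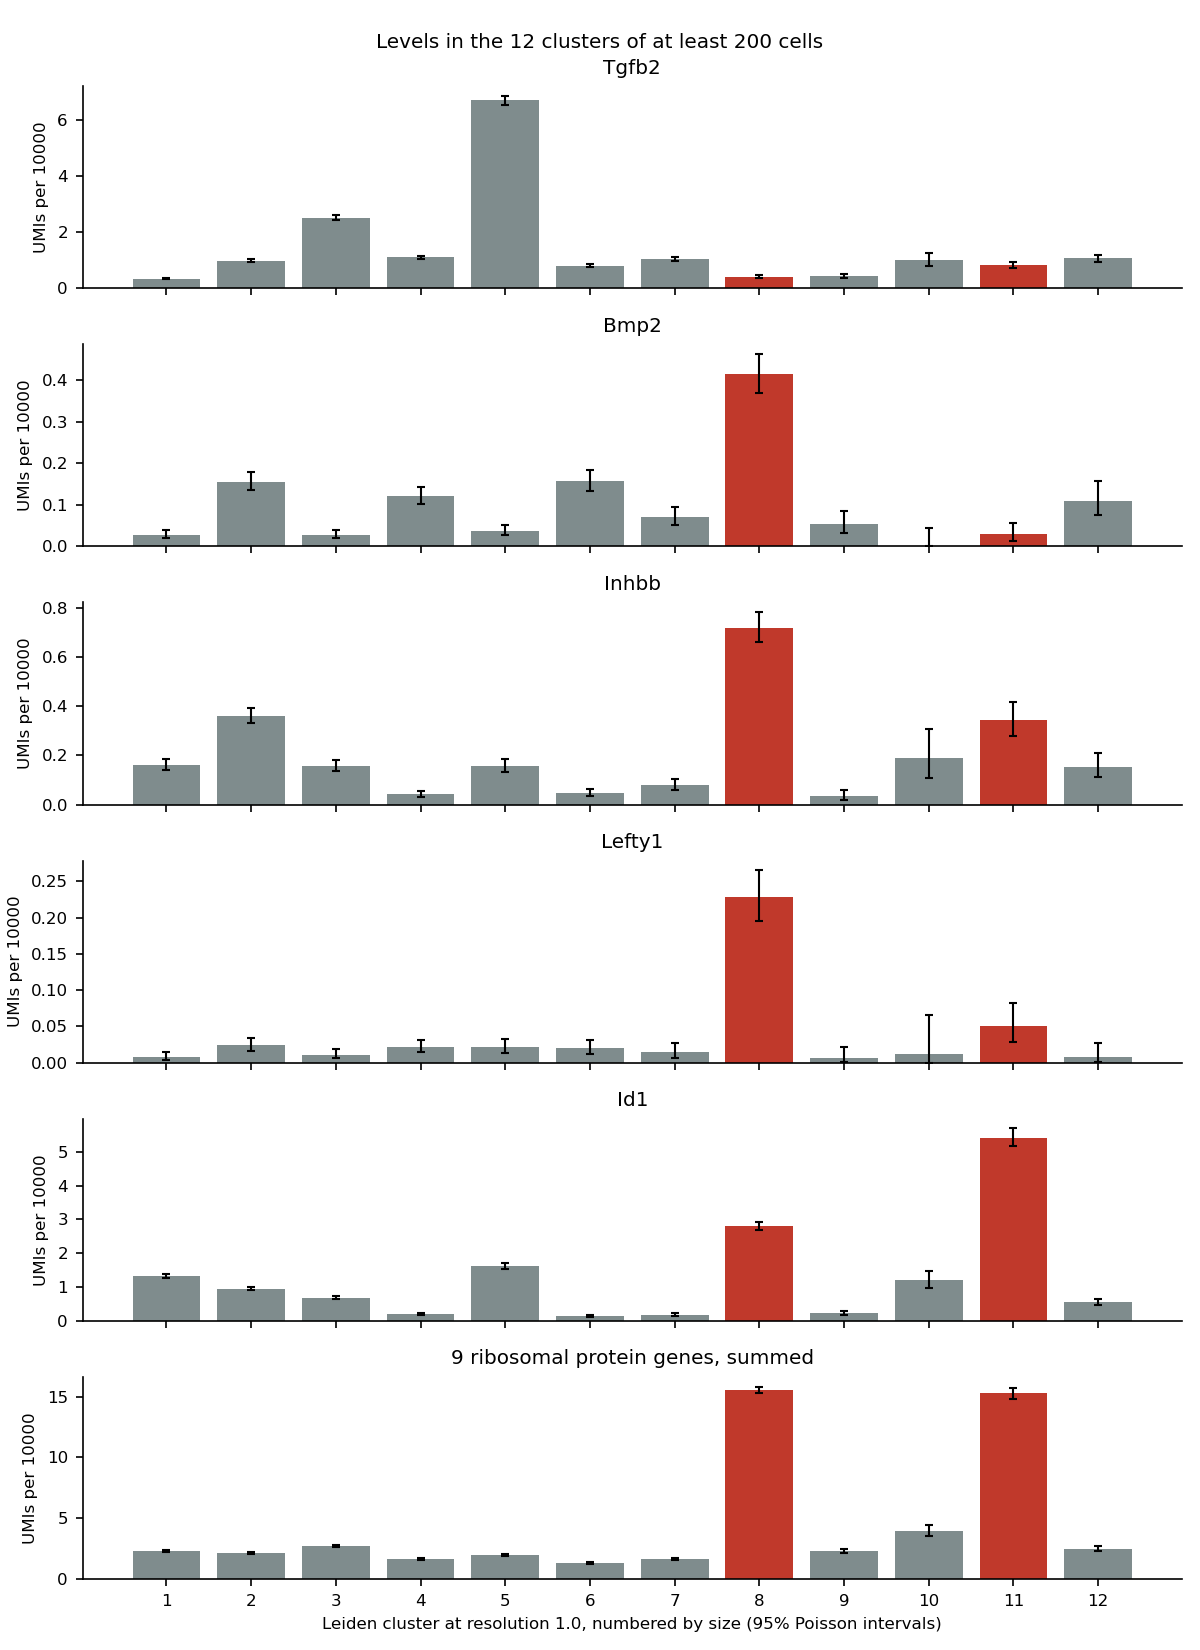
Levels of Tgfb2, Bmp2, Inhbb, Lefty1 and Id1, and the summed level of 9 ribosomal protein genes, in UMIs per 10000 with 95% exact Poisson intervals, in the 12 clusters of at least 200 cells; clusters with a ribosomal level over 1.5 times that of all cells are in red. Tgfb2 peaked in cluster 5 at 6.69, Bmp2, Inhbb and Lefty1 in cluster 8, and Id1 in cluster 11, where the ribosomal level was 15.3.

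Pooled over the runs, Ptprc cells had a lower level of 8 members than the fibroblast-like and endothelial-like cells together, beyond counting error. The size of the gap depended on how cells were grouped. The gap was 13.9-fold for Tgfb2 (9.76 to 20.4), 9.97-fold for Eng (8.75 to 11.4), 6.96-fold for Id1 (5.11 to 9.75) and 7.02-fold for Inhbb (3.401 to 17.5). Of the receptors, Acvr1 was 2.67-fold lower (2.38 to 3.01) and Bmpr2 2.001-fold (1.83 to 2.19), at the edge of the call. Bmp2 was 4.57-fold lower (1.95 to 14.1), from 5 UMIs. Its ratio was 0.121 (0.0146 to 0.438) in run 1, from 2 UMIs. In run 2 it was 0.557 (0.113 to 1.68), from 3 UMIs, so no difference was detectable there. Lefty1 was 7.87-fold lower from 1 UMI, with an interval of 1.40 to 312. Its ratio was 0.179 (0.00451 to 1.008) in run 1 and 0, with an upper limit of 1.86, in run 2. A difference in Lefty1 was thus not detectable within either run alone. Acvr1c was 2.16-fold lower from 2 UMIs, with an interval of 0.587 to 18.0, so that no difference was detectable for it. With clusters in place of the marker rules, the log2 ratios shrank from -3.79 to as little as -1.26 for Tgfb2, from -3.32 to -1.79 for Eng and from -2.80 to -1.73 for Id1. The group of clusters is a mixed one, however: at resolution 1.0 it held 789 cells, of which 56.0% were Ptprc cells by the rule and 19.4% endothelial-like, and it included cluster 14, with a Tgfb2 level of 3.22. The call held in 12 of 14 alternatives for Acvr1, 11 of 14 for Bmp2, 7 of 14 for Bmpr2 and 5 of 12 for Acvr1c, and in all of them for the other 5. Ptprc cells held proportionally more of run 2, 26.0%, than endothelial-like cells at 15.2% and fibroblast-like cells at 8.70%.

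The genes most like each member were sought by Pearson correlation of log2 levels over the 7 groups that do not overlap, among 2270 genes with at least 200 UMIs. With so few groups, all from the same matrix, high values come easily and are given as a description. Tgfb2 was most like Sulf1 (r = 0.986), Gask1b and Ro60, and Acvr1 most like Mrrf (0.989), Ptpn14 and Rrp15. Bmpr2 was most like Zfp335os (0.976), Clp1 and Trib3, and Eng most like Trib3 (0.995), Cd59a and Bend7. Bmp2 lay nearest Hecw2 (0.991), Swi5 and A330023F24Rik, and Lefty1 nearest Helz2 (0.989), Map1lc3a and Pdcl. Inhbb lay nearest Sox13 (0.995), Lypd1 and S100a16, and Id1 nearest Inafm2 (0.995), Notch1 and Rufy4. With an offset of 0.1 in place of 0.01, the 3 nearest genes stayed the same for Acvr1, 2 of 3 for Tgfb2, Bmpr2, Bmp2, Lefty1 and Id1, and 1 of 3 for Eng and Inhbb.

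Other genes of the pathway came from a list of 101, of which 17 are in the matrix and 15 had at least 50 UMIs. These 17 genes and the 9 members all lie on chromosomes 1, 2 and 3, so that a gene without a row cannot be taken as not expressed, and shares of all genes are those of the matrix, not of the genome. Between endothelial-like and fibroblast-like cells, 1 of 15 was called higher, against 15.3% of 2601 genes, and 6 lower, against 18.1%. The median log2 ratio of the list was -0.22, and that of all genes -0.05. The SMAD corepressor Tgif2 was 2.46-fold higher in endothelial-like cells. Thbs1, whose product activates latent TGF-beta, was 8.28-fold lower, at 0.202 against 1.67. Pmepa1, a TGF-beta target that restrains SMAD signalling, was 3.84-fold lower, and Zeb2, a SMAD-binding repressor, 3.02-fold lower. Inha, the inhibin alpha subunit that pairs with the product of Inhbb, was 3.64-fold lower, at 0.00855 against 0.0311. Fbn1, of which mgR is an allele, was 2.37-fold lower, at 2.04 against 4.84. The 5 called members were thus higher in endothelial-like cells, and 6 of the 7 called list genes higher in fibroblast-like cells.

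Within the fibroblast-like cells, 2 of 14 list genes were called, against 8.63% of 2190 genes. Serpine2 was 2.87-fold higher with Scn7a (0.504 against 0.176) and Thbs1 3.38-fold lower (0.611 against 2.06). Postn, a TGF-beta target in valves, divided the endothelial-like groups, with 8.53 in Prox1/Kif26b, 1.33 in Selp/Fmo2 and 0.512 in Tmem163/Kcnh1 cells. It was 4.81-fold higher, 3.12-fold lower and 7.95-fold lower than in the respective other endothelial-like cells. These 3 groups thus ranked for Postn in the reverse order of Tgfb2. Of 13 list genes tested in each, Postn alone was called for Prox1/Kif26b and for Selp/Fmo2, while for Tmem163/Kcnh1 Smad9 and Tgif2 were also lower, 3.27-fold and 3.64-fold, the latter from 4 UMIs. The shares of all 2398 genes called were 9.17% for Prox1/Kif26b, 7.21% for Selp/Fmo2 and 11.9% for Tmem163/Kcnh1. Between Kcnh1 and Tmem163 cells, 1 of 10 was called higher, against 6.25% of 1504 genes, and 1 lower, against 7.65%: Postn was 2.84-fold higher and Serpine2 2.80-fold lower with Kcnh1.

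In Ptprc cells 3 of 15 list genes were called higher, against 15.7% of 2648 genes, and 6 lower, against 22.1%. The type II activin receptor gene Acvr2a was 2.28-fold higher than in fibroblast-like and endothelial-like cells together, at 1.74 against 0.762, in contrast to Bmpr2. Zeb2 was 5.35-fold higher and Pmepa1 2.33-fold higher. Fbn1 was 7.70-fold lower, Postn 7.86-fold, Smad9 4.08-fold and Serpine2 2.54-fold. Hey1 was 14.0-fold lower (2.51 to 556) and Inha 3.61-fold lower (0.635 to 144), each from 1 UMI in Ptprc cells, and for Inha a difference was not detectable at this depth.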

How the data were processed

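Expression was measured by droplet 3′ RNA sequencing of mitral valves. The submitters' processing notes name Cell Ranger 7.1.0 and the mm10 build. The authors filtered and normalized the cells in Seurat, and the deposited values are on a natural log scale, taken after scaling each cell to 10000 UMIs and adding 1. Harmony, which the authors also used, acts on components and leaves these values as they are. UMIs and each cell's total were recovered from them, whole within 0.02 for 100% of values, and the analysis had been planned for recovered UMIs. Of 3265 listed genes, 1 with 11958 empty values was left out.

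Members and lists were chosen with earlier results of these data known. The genes named are all members, the list genes with at least 50 UMIs, and for each member of at least 200 UMIs the 3 genes most like it. The 421 cells with 2 or more fibroblast genes and Egfl7, possible doublets, and the 3377 cells that met no rule were kept apart. As a further guard against doublets, the deepest 5% of cells were left out as an alternative. Ratio intervals are exact, from the binomial split of both groups' UMIs. A count of 0 was set to 3 in ratios. No count model was fitted, since 1 matrix holds no replicates. Clusters used 2000 variable genes, clipped at 10 after scaling, 50 components, 15 neighbours and resolutions of 0.5 and 1.0. Genes were placed by symbol in GENCODE M21. The steps were tested on simulated data. Python 3.11.15, numpy 2.4.6, scipy 1.17.1, scanpy 1.11.5, igraph 0.11.9, scikit-learn 1.9.0 and matplotlib 3.10.9 were used.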

Additional observations from a re-analysis of the deposited data

Results flagged for a closer look

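The 3377 cells that met no rule, 20.6% of all, take part in no comparison, so their Bmp2 level is given here. It was 0.186 (95% exact Poisson interval 0.165 to 0.208) from 299 UMIs, or 28.7% of all Bmp2 UMIs, above 0.113 in fibroblast-like and 0.0868 in endothelial-like cells. It was 0.188 in run 1 and 0.169 in run 2. In cluster 8 the level was 0.432 in cells of no group and 0.407 in the others, in cluster 2 it was 0.215 and 0.131, and in cluster 6 it was 0.248 and 0.128. In cluster 4, which held the most cells of no group, it was 0.128 and 0.119, and in cluster 3 it was 0.0133, from 1 UMI, and 0.0290. Median depth was 4335 UMIs. What sets these cells apart was not tested.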

How the results depend on the processing

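Across 17 alternatives, 22 member ratios were past 2-fold, of which 19 kept their direction in every alternative that gave a value and 10 stayed past 2-fold in all. Of 775 log2 ratios recomputed, 559 stayed within the counting interval of the reported value, 213 moved outside it and 3 reversed. These were Tgfb2 in Prox1/Kif26b cells (0.88) and in Tmem163/Kcnh1 cells (-1.46) with clusters at resolution 0.5, and Lefty1 between endothelial-like and fibroblast-like cells (-0.00039) without the high ribosomal clusters. Of 95 recomputed counts of members past 2-fold, 68 stayed within 1.5 times the reported count. The others follow.

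For Tmem163/Kcnh1 the count of 2 became 1 in cells of at least 2000 UMIs, without the deepest 5% of cells, with at least 200 UMIs, in run 1, in run 2 and without the high ribosomal clusters, 7 with clusters at 0.5 and 6 at 1.0. For the Scn7a split the count of 0 became 1 with all 3 fibroblast genes and with clusters at 0.5. For Prox1/Kif26b the count of 1 became 3 with Egfl7 at 2 UMIs and no fibroblast gene, 2 by the highest pair, in run 1 and without cells with Ptprc, and 4 with both genes of a pair and with clusters at 0.5 and 1.0. For Selp/Fmo2 the count of 1 became 0 with Egfl7 at 2 UMIs, by the highest pair, with at least 200 UMIs and in run 2, 4 with clusters at 0.5 and 2 at 1.0. For Ptprc cells the count of 9 became 5 with clusters at 0.5 and 1.0. For Kcnh1 against Tmem163 the count of 4 became 1 with clusters at 0.5 and 2 with at least 200 UMIs. The cause was not tested, except that fewer members were tested with 200 UMIs. Of 54 shares, 45 moved with thinning, and 7 of 8 lists of nearest genes changed with the offset. The split of Kcnh1 from Tmem163, cells with Ptprc or of high ribosomal clusters left out, and resolution 1.0 were chosen after seeing the data.

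No paired analysis was possible because no cell can be matched to a mouse. Intervals cover counting error within 1 pooled matrix and say nothing of mice, genotype or library. Depth limits Acvr1c, Lefty1 and Bmp2 most.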

Other observations

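The 421 cells with UMIs of at least 2 fibroblast genes and of Egfl7, which take part in no comparison, had a median of 8709 UMIs. Pooled over the runs, for 8 of the 9 members their level lay between those of the fibroblast-like and endothelial-like cells. These were Tgfb2 (1.13), Acvr1 (3.14), Bmpr2 (3.14), Eng (5.84), Bmp2 (0.0989), Lefty1 (0.0192), Inhbb (0.115) and Id1 (0.519). The Tgfb2 interval, 1.02 to 1.24, overlapped the fibroblast-like one. In run 2 alone their Tgfb2 level was 1.49 (1.18 to 1.86), above 0.714 in fibroblast-like and 1.06 in endothelial-like cells. Lefty1 had 7 UMIs in run 1 and 0 in run 2. Acvr1c, at 0.00824 from 3 UMIs, lay below both.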
